A study of Mus musculus with 12 samples.

Results

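The genes described here are the nuclear genes of oxidative phosphorylation, measured by RNA-seq in 8-cell mouse embryos after knockdown (KD) of Nr5a2, Klf5 or both. Members were the protein-coding genes whose symbol begins with Nduf, Sdha, Sdhb, Sdhc, Sdhd, Uqcr, Cox4, Cox5, Cox6, Cox7, Cox8 or Atp5 and does not end in -ps, which gave 98 of the 55401 genes counted. Of these, 44 belonged to complex I, 8 to complex II, 8 to complex III, 20 to complex IV and 18 to complex V, and 85 encoded subunits while 13 encoded assembly or related factors. The symbol Atp5o stood for 2 overlapping genes that share reads, so its values are uncertain.

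Zygotes were collected 19 h after hCG from superovulated B6129F1 females aged 3 to 5 weeks that had been mated with B6CBAF1 males. They were injected 8 to 9 h after fertilisation and cultured, and each library was made from a pool of 10 embryos at the 8-cell stage. The 4 groups were control siRNA at 15 µM (n = 2), Nr5a2 siRNA at 5 µM (Nr5a2 KD, n = 3), Klf5 siRNA at 10 µM (Klf5 KD, n = 3) and both targeting siRNAs (dKD, n = 4), and every group, the control included, also received H2B-EGFP at 150 ng/µl. The doses used for the dKD were not stated separately. In pooled embryos, fewer cells and less RNA per cell cannot be told apart.

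Oxidative phosphorylation takes place in the inner mitochondrial membrane. Complexes I and II pass electrons from NADH and succinate to ubiquinone, complex III passes them on to cytochrome c, and complex IV passes them to oxygen, while complex V, the ATP synthase, uses the resulting proton gradient to make ATP. Most subunits are encoded in the nucleus and a few core subunits of complexes I, III, IV and V in the mitochondrial genome, so the complexes are built from products of both genomes. Early cleavage embryos inherit their mitochondria from the egg.

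The 3 promoter stretches that follow are shown because Ndufa8 was the member called lower in all 4 comparisons of embryos with and without Nr5a2 siRNA, while Sdhd, which also has a head-to-head neighbour, and Ndufv2 were called higher in Nr5a2 KD embryos. The sequences are RefSeq's, in GRCm38.p6, and each is written 5′ to 3′ on the minus strand, the strand of the named gene. Capitals mark the letters searched: GCGCATGC for NRF1, CCGGAAG for ETS factors and GABP, AAGATGG for YY1, AAGGTCA or AAGGCCA for NR5A receptors and GGGCGGG for SP and KLF factors, each on both strands. The stretch of Ndufa8, chr2:36049339-36049472, holds the 134 bases between its RefSeq start and that of Morn5, which is transcribed the opposite way. The stretch of Sdhd, chr9:50603850-50603900, holds the 51 bases between its start and that of Timm8b, also transcribed the opposite way. The stretch of Ndufv2, chr17:66101560-66101809, holds the 250 bases before its start.
Ndufa8: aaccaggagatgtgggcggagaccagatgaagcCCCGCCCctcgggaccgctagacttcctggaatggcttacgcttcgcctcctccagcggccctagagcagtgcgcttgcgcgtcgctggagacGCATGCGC
Sdhd: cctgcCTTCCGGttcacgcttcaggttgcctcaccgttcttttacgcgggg
Ndufv2: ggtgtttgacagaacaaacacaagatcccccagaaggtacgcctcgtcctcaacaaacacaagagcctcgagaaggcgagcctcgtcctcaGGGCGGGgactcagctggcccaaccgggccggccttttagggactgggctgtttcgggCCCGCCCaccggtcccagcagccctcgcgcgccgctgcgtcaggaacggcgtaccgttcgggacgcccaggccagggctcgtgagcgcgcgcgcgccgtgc

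The stretch between Ndufa8 and Morn5 held the NRF1 letters next to the Ndufa8 start and the SP and KLF letters nearer to Morn5. The NR5A letters were found neither in the 300-base window of Ndufa8 nor in that of Morn5, which says only that these letters are not there. The 300-base window of Sdhd held the NR5A letters and the SP and KLF letters outside the stretch shown. Windows of 250 bases before and 50 after the start were given for 80 of the 98 members, 85 windows in all. The NRF1 letters were in 14.1% of them, against 3.51% of the 21262 windows of protein-coding genes and 2.71% of all 32851 windows. The ETS and GABP letters were in 24.7% of the members' windows, 11.6% of the protein-coding windows and 8.86% of all. The YY1 letters were in 14.1%, 6.24% and 6.34%, and the NR5A letters in 16.5%, 9.44% and 10.6%. The SP and KLF letters, common in promoters rich in C and G, were in 36.5%, 33.9% and 25.6%. These matches are descriptions of sequence and were not tested.

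Depth ranged from 6676683 to 12560926 counts per library, and the 98 members together took between 1.89% and 2.75% of them. Nr5a2 stood at 225 and 210 CPM (counts per library scaled to a common size, with TMM factors) in the controls, at 24.1 to 38.9 in Nr5a2 KD, at 117 to 256 in Klf5 KD and at 25.3 to 33.9 in dKD libraries. Klf5 stood at 444 and 467 CPM in the controls, at 72.9 to 144 in Klf5 KD and at 40.0 to 82.2 in dKD libraries, and at 109 to 159 in Nr5a2 KD libraries, which received no Klf5 siRNA. Nr5a2 passed the test in Nr5a2 KD embryos against controls (log2 fold change −2.74, SE 0.244, adjusted p = 0.000321), whereas Klf5 did not in Klf5 KD embryos against controls (−2.03, SE 0.292, adjusted p = 0.0996). Klf5 did pass there in 4 of 11 alternatives, namely DESeq2 (adjusted p = 6.36e-07), a fit of all 12 libraries (0.0413), no filter (2.04e-07) and the replicate block (2.21e-08), and without Klf5 KD 3 (0.0357). With 2 control libraries and 3 others there are 10 arrangements, and an exact two-sided permutation test over libraries, with the smaller tail multiplied by 2, cannot go below p = 0.2, the value it gave for both. The share of counts from the mitochondrial genome was 12.9% to 13.2% in the controls and 4.41% to 12.8% in the others, and 4 libraries lay lowest, namely Nr5a2 KD 3, Klf5 KD 1, dKD 3 and dKD 4. The 6 markers of 8-cell embryos, which include Nr5a2 and Klf5, were detected in every library and summed to 4111 and 4563 CPM before TMM in the controls, 4642 to 4977 in Klf5 KD, 2224 to 2811 in Nr5a2 KD and 1940 to 2865 in dKD libraries. Most of this sum was Dppa5a, at 3360 and 3838 CPM in the controls, 4150 to 4568 in Klf5 KD, 2009 to 2562 in Nr5a2 KD and 1779 to 2670 in dKD libraries. Pou5f1, Tfap2c and Cdh1 together came to 103 and 104, 94.2 to 136, 66.7 to 82.5 and 67.5 to 88.3 CPM. The 8 oocyte markers summed to 52.1 to 126 CPM, and the 8 markers of cumulus and granulosa cells summed to 0.226 to 3.16 CPM, with Ptx3 and Inhba at 0 in all 12 libraries.

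Levels between genes were compared per exon length, as TPM (counts divided by exon length and scaled to a common total) in the 2 control libraries. The median subunit stood at 385 TPM in complex III, 213 in complex IV, 166 in complex V, 122 in complex I and 20.1 in complex II, and the assembly and related factors had a median of 28.7. The highest member was Uqcrb, a subunit of complex III, at 2816.5 ± 24.3 TPM (SD, n = 2), followed by the complex IV subunit Cox8a at 2589.7 ± 223, a gap about the size of the spread of Cox8a between the 2 libraries. In complex I, Ndufa1 was highest at 991 ± 32.3 TPM and Ndufs1, the large iron-sulfur subunit, was lowest at 8.73 ± 1.24. Ndufs1, with at most 711 counts, overlaps Eef1b2 on the opposite strand, with up to 4639, and reads of the overlap cannot be told apart. In complex II, Sdhb was highest at 71.7 ± 11.0 and Sdhc lowest at 9.37 ± 0.632. In complex V, Atp5mpl was highest at 902.5 ± 13.0 and Atp5g2 lowest at 13.9 ± 5.14. The lowest of complex III was Uqcrc1, a core protein, at 16.2 ± 1.48. Exon lengths include every annotated isoform, and with the length of the principal mRNA instead the highest member became Ndufa7 in complex I and Atp5j in complex V, and the lowest became Ndufv1 in complex I and Uqcrc2 in complex III. By that length Uqcr10 (2302 TPM) also stood above Cox8a (2120), and the median of complex V (319) above that of complex IV (303).

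Several subunits of complex IV exist as isoforms from separate genes, some of them known from heart, muscle, lung or testis, and for most of them 1 gene dominated. Cox8a ranged from 1507 to 2877 TPM over the 12 libraries (median 2404), while Cox8c ranged from 0.469 to 9.08 and Cox8b, the muscle form, was at 0 in all of them. Cox6a1 ranged from 930 to 1816 TPM (median 1286), and Cox6a2, the heart and muscle form, was at 0 in 7 libraries and reached 3.37. These ranges did not overlap. Cox6b1 ranged from 919 to 1874 TPM against 14.2 to 54.7 for Cox6b2, known from testis. Cox4i1 ranged from 312 to 727 TPM against 17.3 to 59.8 for Cox4i2, a form known from lung and from low oxygen. Cox4i1, with up to 7409 counts, overlaps Emc8 on the opposite strand, with up to 1532.5, and Gm20388 on the same strand, with up to 75. The genes for Cox7a were closer, since Cox7a2 ranged from 1141 to 2177 TPM, Cox7a2l, which takes part in joining complexes into supercomplexes, from 161 to 356, and the muscle form Cox7a1 from 123 to 229. Cox7b ranged from 115 to 349 TPM and Cox7b2 from 7.39 to 56.6. Ndufa4 ranged from 444 to 820 TPM and Ndufa4l2 was at 0 in 10 libraries. In complex V, the 3 genes that encode the same mature c subunit all had counts, with Atp5g1 at 274 to 460 TPM, Atp5g3 at 125 to 368 and Atp5g2 at 10.3 to 22.3. In each of these families the leading gene was the same in every library, except that Atp5g3 stood above Atp5g1 in 1 library, dKD 4 (281 and 274 TPM). This order of the c subunit genes depended on the length used, since by the length of the principal mRNA Atp5g3 ranged from 272 to 773 TPM (median 415) and Atp5g1 from 201 to 339.5 (median 255).

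**Figure D1:**
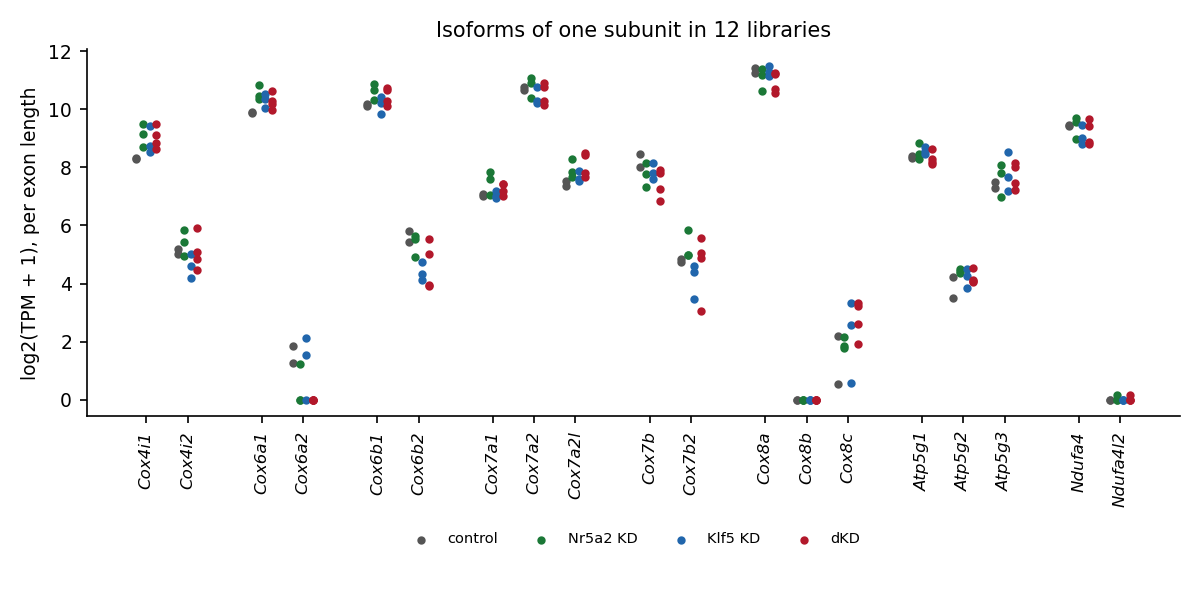
Level per exon length, as log2 of TPM + 1 on the vertical axis, of the genes that encode isoforms of the same subunit, with 1 point per library coloured by group. Cox8a, at 1507 to 2877 TPM, lies far above Cox8c and Cox8b in all 12 libraries.

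Embryos with and without Nr5a2 siRNA were set against each other in 4 comparisons that form 2 pairs with no library in common. Nr5a2 KD against control and dKD against Klf5 KD differ in Nr5a2 siRNA with Klf5 siRNA absent or present on both sides. The second pair also differs in Klf5 siRNA, which dKD against control adds and Nr5a2 KD against Klf5 KD removes. Few members passed the test in any of them. In Nr5a2 KD against control 5 of 94 members tested were higher and 1 lower at an adjusted p under 0.05, where 3.72% of all genes tested were higher and 5.32% lower. The 4 of the 98 members that did not pass the filter on low counts there all belonged to complex IV. In dKD against Klf5 KD 0 of 95 were higher and 2 lower, against 5.91% and 6.73% of all genes, and in dKD against control 1 was higher and 1 lower, against 3.75% and 4.59%. In Nr5a2 KD against Klf5 KD 0 of 93 were higher and 1 lower, against 6.05% and 6.52%. In this fit the members' shares were below the background in all directions but 1, the members higher in Nr5a2 KD against control, where 5 of 94 is 5.32%. Other settings gave more calls, up to 18 lower in dKD against Klf5 KD with the mitochondrial share in the model beside 1350 of the 12904 genes tested, and 22 higher in dKD against control by ERCC scaling, beside 2908 of 13724. Leaving out 1 library also moved the number lower in dKD against control, but no count of all genes was set beside it. For the counts of 0, edgeR gave 2 members higher at an unadjusted p under 0.05 in dKD against Klf5 KD (2.11%, beside 13.6% of all genes) and 7 in Nr5a2 KD against Klf5 KD (7.53%, beside 12.7%). DESeq2 called 0 and 1 higher there, beside 1070 and 951 of all genes. By the unadjusted p of edgeR 17 members were lower in dKD against Klf5 KD (17.9%, beside 13.0% of all genes). In Nr5a2 KD against control 13 were higher by it (13.8%, beside 12.0%). In the other directions of these 4 comparisons the members' unadjusted shares lay below those of all genes. The median log2 fold change of the members was 0.12 in Nr5a2 KD against control, −0.19 in dKD against Klf5 KD, −0.02 in dKD against control and −0.02 in Nr5a2 KD against Klf5 KD, beside 0.04, 0.02, 0.05 and 0.03 for all genes. Exactly 1 member, Ndufa8, was called in both comparisons of each pair, of 94 and 93 members tested in both. The share of all genes called in both was not counted, so whether 1 is few or many is not known.

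**Figure D2:**
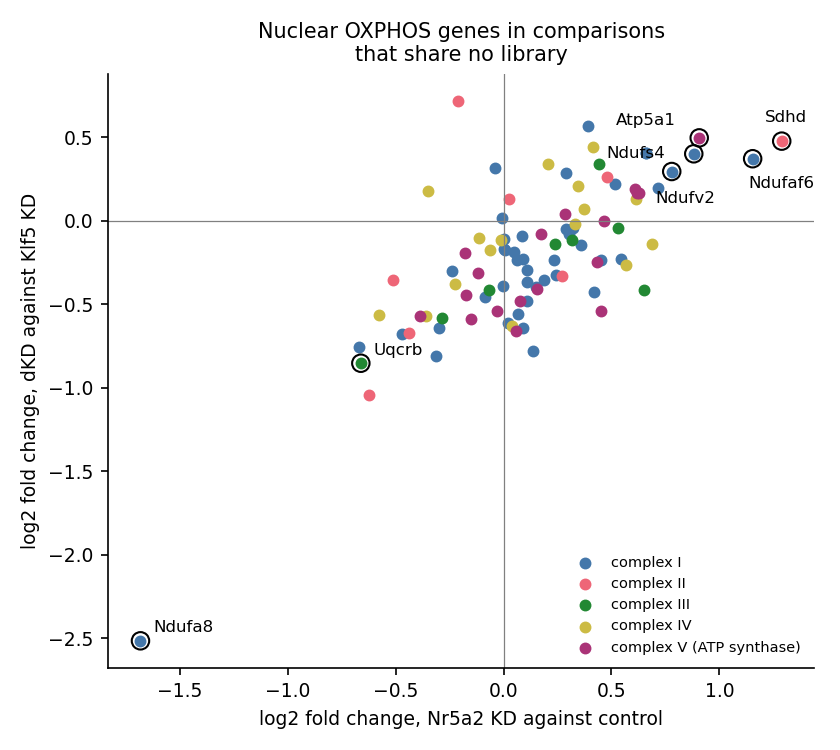
Log2 fold change of each member in Nr5a2 KD against control (horizontal) and in dKD against Klf5 KD (vertical), coloured by complex, with rings on members called in either. The comparisons share no library. Ndufa8, at −1.68 and −2.51, lies apart from the other members in the lower left.

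Ndufa8 encodes an accessory subunit of complex I with twin cysteine motifs, which lies on the side of the intermembrane space. The gene lies on the minus strand of chromosome 2 at chr2:36036326-36049406 in GRCm38. Its level was 106 and 109 CPM in the controls and 36.9, 27.8 and 33.9 CPM in the Nr5a2 KD libraries. It was 221, 145 and 140 CPM in the Klf5 KD libraries and 40.6, 10.6, 40.4 and 25.6 CPM in the dKD libraries. All 7 libraries with Nr5a2 siRNA lay below all 5 without it, a separation favoured by picking the gene through tests of these same libraries. Control embryos had a mean of 108 ± 2.04 CPM and Nr5a2 KD embryos one of 32.9 ± 4.64 (SD, n = 2 and 3). Klf5 KD embryos had a mean of 169 ± 45.5 and dKD embryos one of 29.3 ± 14.3 (n = 3 and 4). Ndufa8 fell 3.21-fold in Nr5a2 KD against control (log2 fold change −1.68, SE 0.226, adjusted p = 0.00133) and 5.71-fold in dKD against Klf5 KD (−2.51, SE 0.377, adjusted p = 0.00147). It also fell 3.55-fold in dKD against control (−1.83, SE 0.398, adjusted p = 0.0173) and 5.08-fold in Nr5a2 KD against Klf5 KD (−2.34, SE 0.282, adjusted p = 0.000283). The call in dKD against control was lost without control 1 (−1.85, adjusted p = 0.108) or control 2 (−1.80, adjusted p = 0.124). Scaled to the ERCC spike-ins, which moves the median of all genes by 0.82 and 0.84 on the log2 scale against the controls, Ndufa8 stood at −0.88 (adjusted p = 0.204) in Nr5a2 KD and −1.003 (adjusted p = 0.137) in dKD embryos. The Klf5 KD libraries lay above the controls without overlap, but this did not pass the test (0.66, SE 0.297, adjusted p = 0.570). Nor did the level follow the mitochondrial share within groups by the test (−0.35 per 5 percentage points, adjusted p = 0.307).

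**Figure D3:**
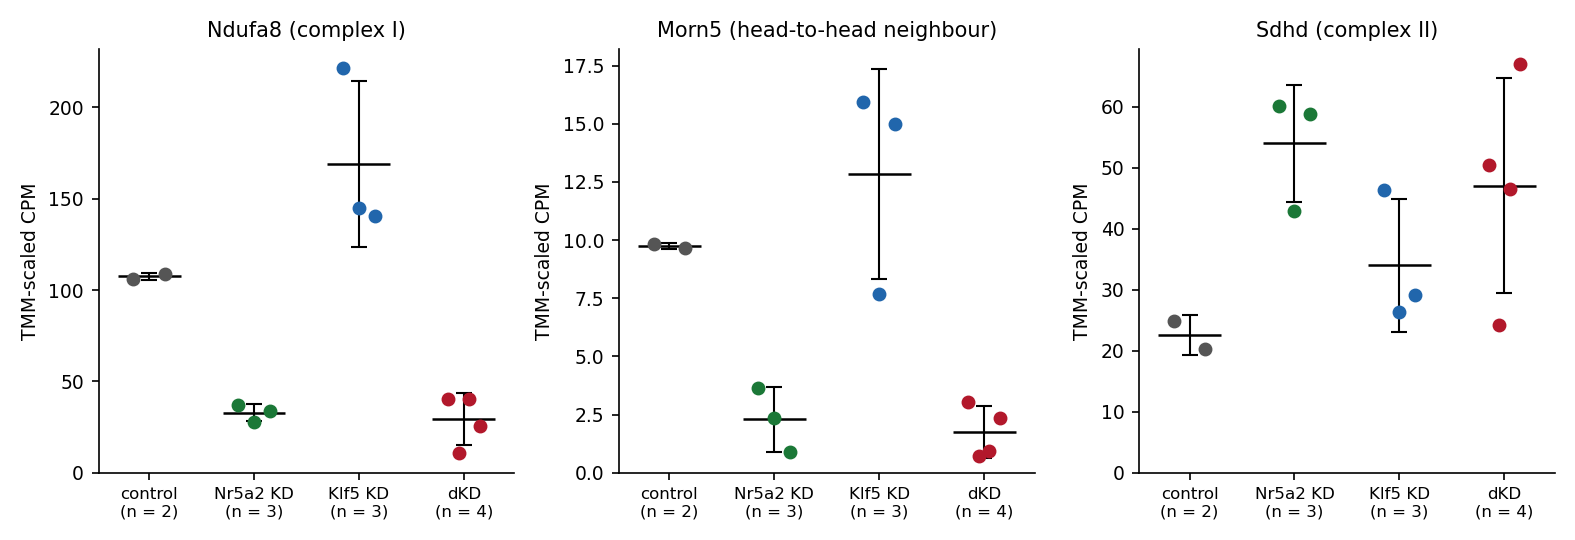
Level of Ndufa8, of its head-to-head neighbour Morn5 and of Sdhd in CPM (vertical) in each of the 12 libraries by group, with a line at each group mean and a bar of 1 SD to each side. The 7 libraries with Nr5a2 siRNA lie at 10.6 to 40.6 CPM of Ndufa8 and the 5 without at 106 to 221.

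Morn5, the neighbour on the plus strand, was looked at after the values of Ndufa8 had been seen. Its annotated start lies 52 bases from that of Ndufa8 in the gene models used for counting, with 51 bases in between. Morn5 stood at 9.85 and 9.66 CPM in the controls, at 3.66, 2.34 and 0.879 in Nr5a2 KD, at 15.9, 7.68 and 15.0 in Klf5 KD and at 3.03, 0.709, 0.945 and 2.36 in dKD libraries, from 5 to 177 counts. As for Ndufa8, the 7 libraries with Nr5a2 siRNA lay below the 5 without. Morn5 fell in Nr5a2 KD against control (−2.06, SE 0.528, adjusted p = 0.0315) and in dKD against Klf5 KD (−2.84, SE 0.483, adjusted p = 0.00254). It also fell in dKD against control (−2.41, SE 0.530, adjusted p = 0.0179) and in Nr5a2 KD against Klf5 KD (−2.46, SE 0.499, adjusted p = 0.00579). Both comparisons with the control lost the call without control 1 (adjusted p = 0.150 and 0.121) or control 2 (0.143 and 0.125), by ERCC scaling and with the mitochondrial share in the model. The call in Nr5a2 KD against control was also lost with the replicate block and without Nr5a2 KD 2, and in dKD against control without the 4 libraries of lowest share, whereas both comparisons with Klf5 KD passed under every alternative tried. The libraries do not mark strand. The next genes on the same side were not called in any of these 4 comparisons, with Rbm18 between −0.36 and 0.14 and Mrrf between −0.24 and 0.05, and Lhx6 had at most 1 count and was not tested. A head-to-head protein-coding partner with starts at most 500 bases apart was present for 23 of the 98 members (23.5%), against 1350 of all 21897 protein-coding genes (6.17%). Ndufa8 with Morn5 was the only such pair in which both genes were called in any of these 4 comparisons. Few pairs could qualify, since 2 members with a partner were called in Nr5a2 KD against control and 1 in each other comparison. The share of all head-to-head pairs with both genes called was not counted.

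The 5 members that rose in Nr5a2 KD against control came from complexes I, II and V. Sdhd, a membrane anchor of complex II, stood at 24.9 and 20.3 CPM in the controls and at 60.2, 43.0 and 58.9 CPM in Nr5a2 KD libraries, and rose by 1.29 on the log2 scale (SE 0.263, adjusted p = 0.0112). Its partner Timm8b, a chaperone of the intermembrane space, was not called (−0.28, SE 0.283, adjusted p = 0.612). Ndufaf6, an assembly factor of complex I, rose from 26.7 and 14.8 to 45.0, 36.0 and 54.0 CPM (1.15, SE 0.311, adjusted p = 0.0387). Atp5a1, the α subunit of the catalytic head of complex V, rose from 156 and 137 to 293, 208 and 304 CPM (0.91, SE 0.244, adjusted p = 0.0388). It overlaps Haus1 on the opposite strand, and reads of the overlap cannot be told apart. Ndufs4, an accessory subunit close to the NADH-oxidising module, rose from 72.9 and 58.1 to 133, 113 and 110 CPM (0.88, SE 0.229, adjusted p = 0.0340). Ndufv2, a core subunit of that module, rose from 342 and 316 to 585, 536 and 542 CPM (0.78, SE 0.211, adjusted p = 0.0393). For all 5, no control library overlapped an Nr5a2 KD library. The genes were picked by the test of these same libraries, which favours such a separation, and the share of all genes without overlap was not counted. All 5 calls were lost without either control library, and 0 members were higher without control 1 (adjusted p from 0.0673 for Ndufaf6 to 0.293 for Ndufv2) or without control 2 (from 0.166 for Sdhd to 0.373 for Ndufaf6). With the mitochondrial share in the model, Sdhd (1.06, adjusted p = 0.0442) and Ndufs4 (0.91, adjusted p = 0.0454) still passed, and 3 members were higher in all. The other 3 did not pass, with Ndufv2 at 0.76 (adjusted p = 0.0513), close to its value without the share, Atp5a1 at 0.61 (0.139) and Ndufaf6 at 0.82 (0.175). Without Nr5a2 KD 1 the calls of Ndufs4, Ndufv2, Atp5a1 and Ndufaf6 were lost too, as were those of Ndufv2 without Nr5a2 KD 2 or with length offsets, of Ndufaf6 without Nr5a2 KD 3 or without the 4 libraries of lowest share, of Ndufs4 by ERCC scaling and of Sdhd with all 12 libraries fitted.

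Of these 5 genes Atp5a1 was also called in dKD embryos against controls. Atp5a1 stood at 235, 219, 275 and 293 CPM in dKD libraries and was higher than in the controls (0.85, SE 0.216, adjusted p = 0.0343), a call lost without control 1 (adjusted p = 0.209), control 2 (0.311), dKD 3 (0.0650) or dKD 4 (0.0751). Ndufs4 came next, at 100 to 110 CPM (0.73, SE 0.208, adjusted p = 0.0518), followed by Ndufaf6 (0.97, adjusted p = 0.0675), Sdhd (1.11, adjusted p = 0.0836) and Ndufv2 (0.47, adjusted p = 0.159). These 2 comparisons share the control libraries. In dKD against Klf5 KD, which does not use the controls, the 5 genes lay between 0.30 and 0.50 and none was called.

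The other member called lower in dKD against Klf5 KD was Uqcrb, a small subunit of complex III that helps to form the ubiquinone site. It stood at 1539, 1253 and 2022 CPM in Klf5 KD and at 1155, 1012, 715 and 647 CPM in dKD libraries, and fell by 0.85 on the log2 scale (SE 0.251, adjusted p = 0.0406). The groups did not overlap, which picking the gene by the test of these same libraries favours. In the controls it stood at 1592 and 1532 CPM and in Nr5a2 KD at 1291, 1026 and 607, a difference that was not called (−0.66, adjusted p = 0.164). Its level also rose with the mitochondrial share within groups (0.44 per 5 percentage points, adjusted p = 0.0242), in the fit without pairs. The share had a mean of 9.58% in dKD and 8.16% in Klf5 KD libraries, which include the lowest of all, Klf5 KD 1 at 4.41%. The call was lost without any 1 of Klf5 KD 1 (adjusted p = 0.0744), Klf5 KD 3 (0.136), dKD 2 (0.0643), dKD 3 (0.106) or dKD 4 (0.109). It was also lost by ERCC scaling (0.175), with length offsets (0.0589), with the replicate block (0.275), with total counts (0.0865) and without the 4 libraries of lowest share (0.203), whereas it became stronger with the share in the model (−1.01, adjusted p = 0.000968). Uqcrb overlaps Gm10767 on the opposite strand. With the share in the model 18 of 95 members were lower in dKD against Klf5 KD and 2 higher, beside 1350 and 1193 of the 12904 genes tested.

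For Klf5 siRNA the counts were 0. In Klf5 KD against control 0 of 94 members were called in either direction, where 0% of genes were called, and 6 members were higher (6.38%) and 1 lower (1.06%) at an unadjusted p under 0.05 by edgeR, beside 3.81% and 4.67% of all genes. In dKD against Nr5a2 KD 0 of 94 members and 0% of genes were called, with 0 members higher and 1 lower at an unadjusted p under 0.05, beside 196 and 251 genes. DESeq2 called 0 members in both, and 50 and 4 genes. The median log2 fold change of the members was 0.16 in Klf5 KD against control and −0.22 in dKD against Nr5a2 KD, beside 0.00 and 0.01 for all genes. Whether Nr5a2 siRNA acted differently with and without Klf5 siRNA was tested as an interaction over the 12 libraries. It gave 0 of 95 members and 0% of genes, with 4 members (4.21%) and 4.82% of genes at an unadjusted p under 0.05, and 0 members and 3 genes by DESeq2. The median interaction was −0.35 for the members, of which 12 lay above 0 and 83 below, beside 0.00 for all genes. It was also below 0 in other lists, at −0.30 for cytosolic and −0.31 for mitochondrial ribosomal proteins, −0.36 for TCA cycle genes and −0.25 for other protein-coding genes with an mRNA under 1 kb. It was above 0 for the mRNAs of the mitochondrial genome (0.61, with 13 of 13 above 0) and for the regulators (0.07, with 10 above and 6 below). For Ndufa8 the interaction was −0.82 (adjusted p = 0.950).

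The summed share of the members was 2.09% and 2.15% of gene counts in the controls, 2.75%, 2.29% and 2.08% in Nr5a2 KD, 2.34%, 1.92% and 2.44% in Klf5 KD and 2.48%, 2.10%, 2.07% and 1.89% in dKD libraries. On this scale the groups overlapped, and the mean was 111.8 ± 15.96% of the control mean for Nr5a2 KD (SD over 3 libraries), 105.2 ± 13.0% for Klf5 KD and 100.7 ± 11.6% in dKD embryos (n = 4). Per ERCC count the groups did not overlap with the controls, since the members had 5.25 and 4.66 counts per ERCC count in the controls and 5.96 to 10.9 in the 10 knockdown libraries. The means on that scale were 175.0%, 170.3% and 156.1% of the control, and the spike-ins took 0.398% to 0.459% of counts in the controls and 0.204% to 0.378% in the others. These spike-in shares did not overlap either, so all genes summed also stood higher per ERCC count in every knockdown library. Whether the members rose more than all genes on that scale was not tested.

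The sum was also split at an mRNA length of 1 kb, a boundary chosen after the values had been seen. The 56 shorter members took 1.76% and 1.83% of nuclear counts in the controls, 2.19%, 1.86% and 1.40% in Nr5a2 KD, 1.68%, 1.44% and 2.07% in Klf5 KD and 2.05%, 1.71%, 1.42% and 1.24% in dKD libraries. The 42 longer members took 0.653% and 0.640%, then 0.874%, 0.757% and 0.822%, then 0.773%, 0.647% and 0.693%, and then 0.794%, 0.695%, 0.803% and 0.775%. Some libraries were high or low in both classes, such as Nr5a2 KD 1, the highest in both, and Klf5 KD 2, which was low in both. The 3 lowest shares of the shorter members were those of dKD 4, Nr5a2 KD 3 and dKD 3, which are among the 4 libraries of lowest mitochondrial share. In Nr5a2 KD against control all 5 members that rose had an mRNA of 1 kb or longer, which makes 5 of 42 longer members, or 11.9%, beside 4.04% of other protein-coding genes of that length. In dKD against control 1 of the 42 was higher (2.38%, beside 4.24% of the others). In dKD against Klf5 KD and Nr5a2 KD against Klf5 KD edgeR called none of them higher, beside 6.37% and 6.22% of the others, where 2 and 7 of all members were higher at an unadjusted p under 0.05 and DESeq2 called 0 and 1. The median log2 fold change of the longer members was 0.32 in Nr5a2 KD against control, where it was 0.06 for the shorter ones, 0.21 in dKD against control, −0.09 in dKD against Klf5 KD and 0.04 in Nr5a2 KD against Klf5 KD. In Klf5 KD against control, with no Nr5a2 siRNA, it was 0.27 for the longer and 0.07 for the shorter members.

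**Figure D4:**
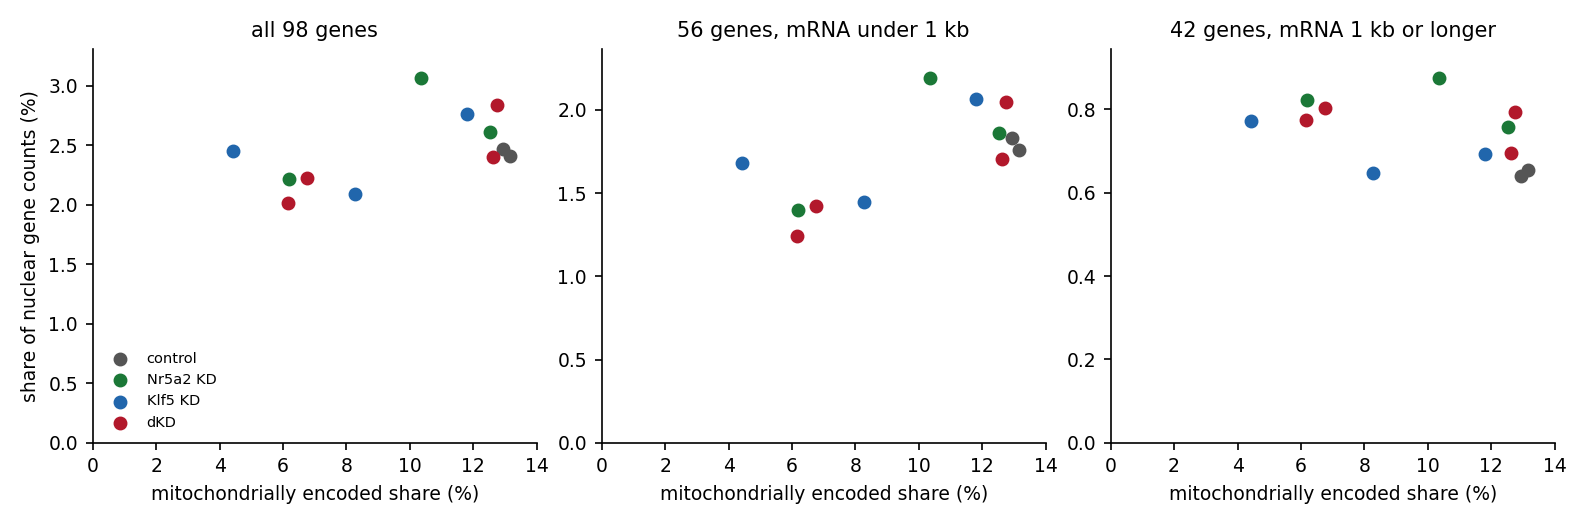
Share of nuclear gene counts taken by members with an mRNA under 1 kb and of 1 kb or longer, against the share of all gene counts from the mitochondrial genome, both in percent, with 1 point per library coloured by group. The shorter members lie at 1.24% to 2.19% and the longer ones at 0.640% to 0.874%.

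To follow this within groups, the slope of each member on the mitochondrial share was fitted over all 12 libraries with the group as a term. Of the 95 members tested 18 were higher and 21 lower with a higher share, where 5.34% of all 14742 genes were higher and 9.06% lower. With Nr5a2 KD and dKD libraries of the same number taken as pairs, edgeR called 0 members higher and 13 lower, beside 155 and 599 of all genes, with 37 members and 2749 genes at an unadjusted p under 0.05, and DESeq2 was not run with the pairs. All 39 members had the same direction of slope as without the pairs, and the 13 were among them, so the calls described next include 26 that were lost. The members called higher were all subunits, and 16 of the 18 had an mRNA under 1 kb (421 to 4371 bases, median 597.5). Of those called lower 17 were subunits and 5 had an mRNA under 1 kb (645 to 2981 bases, median 1445). By complex, 5 members of complex I were higher and 9 lower, 2 of complex II lower, 3 and 3 of complex III, 7 and 2 of complex IV and 3 and 5 of complex V.

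Among the members lower with a higher share, Ndufa9, an accessory subunit of complex I that binds NADPH, had the steepest slope, at −1.26 on the log2 scale per 5 percentage points (SE 0.117, adjusted p = 6.77e-06). It stood at 170 CPM in Nr5a2 KD 3, 278 in Klf5 KD 1, 231 in dKD 3 and 162 in dKD 4, the 4 libraries of lowest share, and at 59.2 to 117 CPM in the other 8. Ndufa10 followed at −1.03 (adjusted p = 4.2e-05), with 62.1 to 72.7 CPM in those 4 libraries and 22.02 to 37.42 in the other 8. Neither gene overlapped between these sets of libraries. Both the genes and the sets were chosen by the mitochondrial share, so this separation adds no support to the slopes. Uqcrc2 (−0.97) and Uqcrc1 (−0.78), the core proteins of complex III, Sdhb (−0.88), the iron-sulfur subunit of complex II, and Atp5b (−0.66), the catalytic β subunit of complex V, were also lower. Other core or catalytic subunits were not called, such as Sdha (−0.03), Ndufv1 (0.02), Ndufv2 (−0.09) and Ndufs1 (−0.16). Sdhb stood at 181, 184, 144 and 117 CPM in the 4 libraries of lowest share and at 50.3 to 114 in the others. Shorter members in this set included Ndufb10 (−0.64), Atp5g3 (−0.61) and the complex IV subunits Cox5a (−0.57) and Cox4i1 (−0.42).

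Among the members higher with a higher share, none of which was called with the pairs, Cox6b2 had the steepest slope at 0.89 (SE 0.178, adjusted p = 0.00280), with 30.2 and 37.8 CPM in the controls, 31.96, 31.68 and 15.3 in Nr5a2 KD, 11.4, 12.2 and 19.1 in Klf5 KD and 20.1, 28.2, 7.91 and 7.56 in dKD libraries. Ndufa4, a subunit of complex IV despite its name, had a slope of 0.59 and stood at 721, 608 and 331 CPM in Nr5a2 KD, 444, 357 and 654 in Klf5 KD and 650, 531, 324 and 288 in dKD libraries. The lowest values of both genes were those of dKD 4, among the libraries of lowest share. Cox4i2 (0.60), Cox7a2 (0.54), Atp5l (0.53), Ndufb4 (0.51), Atp5e (0.50), Uqcrh (0.48), Cox8a (0.48) and Cox6c (0.48) were among the others. Thus Cox4i1 and Cox4i2, alternative forms of the same subunit, were called in opposite directions in the fit without pairs, with the overlap of Cox4i1 and Emc8 as a limit. The exceptions in length were Ndufb2 (0.62, mRNA of 4371 bases) and Ndufv3 (0.43, 1582 bases).

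Across the 95 members the slope and the mRNA length had a Spearman correlation of −0.51, given as a description, since the genes share libraries and depth. Across 11653 other protein-coding genes it was 0.18. Among members under 1 kb 30.2% were higher and 9.43% lower, beside 10.1% and 6.94% of 893 other protein-coding genes of that length. Among members of 1 kb or longer 4.76% were higher and 38.1% lower, beside 4.86% and 10.2% of 10760 others. With the pairs the shorter members had 0% higher and 3.77% lower, beside 0.896% and 3.36% of the others, and the longer ones 0% and 26.2%, beside 1.06% and 4.50%. After removing a smooth trend of each library on exon length the correlation was −0.48 in the members. The calls rested on the 4 libraries of lowest share together. Without them edgeR called 0 members and 0 genes, with 5 members and 896 genes at an unadjusted p under 0.05, and all 39 members called before had the same direction of slope. Leaving out 1 library at a time, between 24 and 39 of the 39 were called again and all 39 had the same direction. The number higher was 6 without Nr5a2 KD 3 or dKD 4, 8 without dKD 1 or dKD 3, 9 without Klf5 KD 3, 11 without dKD 2 and 28 without Klf5 KD 1. All genes called in either direction numbered 1460 without Nr5a2 KD 3, 1600 without dKD 4, 1835 without dKD 1 and 1533 without dKD 3. They numbered 1477 without Klf5 KD 3, 1595 without dKD 2 and 1905 without Klf5 KD 1, beside 2122 with all 12 libraries.

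**Figure D5:**
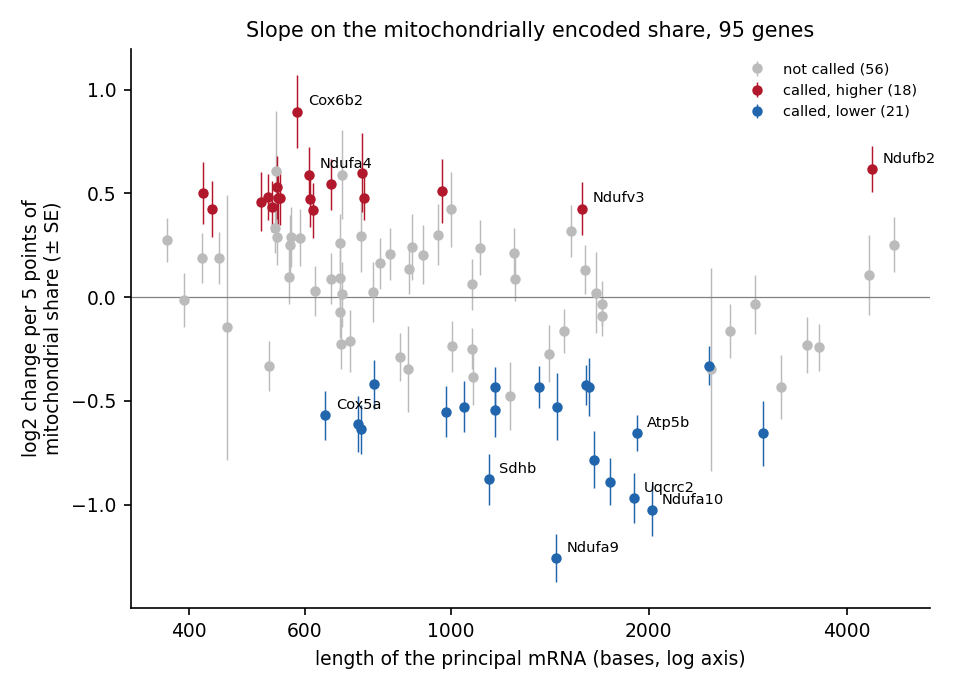
Slope of each member's log2 level per 5 percentage points of mitochondrial share (vertical) against the length of its principal mRNA in bases on a log axis (horizontal), with 95 members tested. Bars are 1 SE to each side. Members called higher lie mostly left of 1000 bases and members called lower mostly right of it.

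Other gene lists of mitochondria and translation were set beside the members. With a higher mitochondrial share 9 of 17 genes of the TCA cycle and pyruvate dehydrogenase were lower, and 2 of 78 mitochondrial ribosomal proteins were higher and 34 lower. Of 86 cytosolic ribosomal proteins 29 were higher and 13 lower. Of 33 other assembly factors 2 were higher and 6 lower, of 14 mitochondrial carriers 1 and 6, and of 16 regulators 2 and 1, where 5.34% of all genes were higher and 9.06% lower. These are calls of the fit without pairs. With the pairs 7 TCA cycle genes and 6 carriers were lower and 0 higher, while 1 mitochondrial ribosomal protein was higher and 14 lower. Most calls of cytosolic ribosomal proteins were lost, with 2 higher and 8 lower, so that the larger number turned from higher to lower, and of the assembly factors and regulators 1 and 0 were higher and 2 and 0 lower, where 1.05% of all genes were higher and 4.06% lower. In Nr5a2 KD against control the calls were 2 of 17 TCA cycle genes, 1 of 13 carriers, 2 of 78 mitochondrial and 1 of 86 cytosolic ribosomal proteins higher, and 1 of 33 assembly factors and 1 of 16 regulators lower, where 3.72% of all genes were higher and 5.32% lower. Of the 13 mRNAs of the mitochondrial genome 2 were lower, with a median of −0.54, and the median was −0.71 in Klf5 KD against control, −0.63 in dKD against control and 0.02 in dKD against Klf5 KD. In dKD against Klf5 KD 1 was higher and 2 lower of 33 assembly factors, 1 and 2 of 13 carriers and 1 and 5 of 78 mitochondrial ribosomal proteins. Of 17 TCA cycle genes and of 16 regulators 1 each was lower, and of 86 cytosolic ribosomal proteins 0 were called. Of all genes 5.91% were higher there and 6.73% lower. Called in the same direction in Nr5a2 KD against control and in dKD against Klf5 KD were Uqcc3, an assembly factor of complex III (−1.01, adjusted p = 0.0108, and −1.15, adjusted p = 0.00483), and Tefm, an elongation factor of mitochondrial transcription (−0.75, adjusted p = 0.0497, and −0.85, adjusted p = 0.0331). The ATP/ADP carrier Slc25a4 was higher in both (1.68, adjusted p = 0.00506, and 1.27, adjusted p = 0.00417), as was Mrps36 (0.92, adjusted p = 0.0453, and 0.87, adjusted p = 0.0428). The share of all genes called in both was not counted.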

How the data were processed

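The authors trimmed reads with Trim Galore 0.6.2, used STAR for alignment to GRCm38 (named in the file headers), extended by the spike-in and the H2B-EGFP sequence, and counted reads over exons with featureCounts 2.0.1, sharing reads between overlapping genes. The deposited values are therefore estimated counts, of which 7.30% to 8.66% per library were not whole, and they were rounded. The libraries were made with SMART-seq v4 without molecular identifiers or strand.

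Genes were named from GENCODE M21, which named 55141 of 55401, with all 98 members at the same coordinates. Each comparison used edgeR 4.0.16 (R 4.3.3) with filterByExpr, TMM, the quasi-likelihood test and Benjamini-Hochberg adjustment over all genes, at an adjusted p of 0.05, with the libraries of the groups compared. The slope on the mitochondrial share and the interaction used all 12 libraries. TPM used exon lengths. DESeq2 1.42.0 was an alternative, and the fits were tested on simulated data. The labels number the libraries without saying that they came from separate collections of embryos, so p-values measure the spread between these libraries, which may be technical. Counts from 6676683 to 12560926 per library set the precision.

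Members and lists were chosen with earlier results of these data known. Named genes were the members called in both comparisons of a pair, the called member with the largest rise and fall of each complex, isoforms of a subunit, the highest and lowest subunit of each complex, the siRNA targets and listed genes called in both comparisons of the first pair. Ndufs4, Ndufv2, the members named for their slope, Morn5, its neighbours, the 1 kb boundary, the interaction and the pairs in the slope fit were chosen after values were seen. Between dKD and Nr5a2 KD libraries every pair of the same number had correlated deviations (0.13, 0.221 and 0.254), a hint that the numbers pair them, although the highest correlation, 0.264, was between dKD 4 and Nr5a2 KD 3. In the other comparisons those of the same number ranged from −0.203 to 0.0594.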

Additional observations from a re-analysis of the deposited data

Results flagged for a closer look

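Of 38 values checked for a dKD library standing apart from the other 3, 1 did. Ndufa4l2 stood at 0.059 CPM in dKD 3 and at 0 in the other 3 dKD libraries, which is a fraction of 1 count, and chance marks about 1 in 20 such groups.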

How the results depend on the processing

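Counts of members called are given below for each alternative that moved them by more than 1.5 times, and of 259 summary values 177 kept within that limit. Counts of all genes called are not set beside them here, so whether the members moved more than all genes is not shown. In Nr5a2 KD against control (5 higher, 1 lower) the counts were 3 and 2 with the mitochondrial share in the model, 10 and 2 with the replicate block, 10 and 2 without the 4 libraries of lowest share, and 2 higher at 2-fold, with 0 lower by ERCC scaling. In dKD against Klf5 KD (0 higher, 2 lower) they were 2 and 18 with the share in the model and 1 and 1 with total counts as library sizes, and the number lower was 4 by DESeq2, 1 by ERCC scaling, 4 with all 12 libraries fitted, 1 with length offsets, 6 without a filter, 1 with the replicate block and 1 at 2-fold. In dKD against control (1 higher, 1 lower) they were 4 and 5 by DESeq2, 22 and 0 by ERCC scaling, 3 and 2 with the share in the model, 6 and 7 without a filter and 5 and 6 with the replicate block, with 3 higher for total counts, 0 higher at 2-fold, 2 lower without mitochondrial genes and 3 lower without the 4 libraries. In Nr5a2 KD against Klf5 KD (0 higher, 1 lower) they were 1 and 2 by DESeq2 and 5 and 3 with the share in the model, with 2 higher for all 12 libraries and for total counts, and 2 lower without a filter and without the 4 libraries. In Klf5 KD against control the replicate block gave 1 higher and 1 lower.

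Leaving out 1 library gave 0 to 10 higher and 1 to 2 lower in Nr5a2 KD against control, 1 to 5 lower in dKD against Klf5 KD, 0 to 3 higher and 0 to 10 lower in dKD against control, and 0 to 1 higher and 1 to 2 lower in Nr5a2 KD against Klf5 KD. A control group of 1 library was assumed to vary like the other group. For the slope on the mitochondrial share (18 higher, 21 lower) it gave 6 to 28 higher and 17 to 22 lower, without the 4 libraries of lowest share 0 and 0, and with the replicate block 0 higher and 13 lower. The summed level per ERCC count was 175.0%, 170.3% and 156.1% of the control in Nr5a2 KD, Klf5 KD and dKD embryos, a scale on which all genes summed were higher too. For Ndufa8, Sdhd, Ndufs4, Ndufv2, Atp5a1, Ndufaf6, Uqcrb, Morn5, Nr5a2 and Klf5 no direction turned in 319 refits, 52 lost the call and 8, all of Klf5, gained one. Uqcc3, Slc25a4, Tefm and Mrps36 were not among these refits. Between dKD and Nr5a2 KD the replicate block changed no call, and in the other comparisons the libraries share only a number. The cause of these shifts was not tested. Every comparison with the control rests on 2 control libraries.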

Other observations

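Ndufb1-ps, annotated as a non-coding transcript from a bidirectional promoter and therefore not a member, stood at 113 to 267 CPM with a median of 159 over the 12 libraries. The 12 processed pseudogenes with symbols of the same families reached at most 2.64 CPM.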
